A study of Homo sapiens with 21 samples.

Results

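The nuclear-encoded subunits of the respiratory chain are 76 of the 19775 genes read on these arrays. A gene was a member when its platform symbol named a structural subunit of complexes I to V, which gave 33 genes of complex I, 3 of complex II, 6 of complex III, 17 of complex IV (cytochrome c oxidase) and 17 of complex V (ATP synthase). Complex I assembly factors, 2 pseudogenes and 3 noncoding RNAs with matching symbols were left out. Each gene was read at the brightest probe set, by its mean in a cell line, among those that carry its symbol alone; 43 of the 76 had more than 1 such probe set, and for 4 genes the chosen probe set differed between the cell lines. Probe sets that carry several symbols were not counted as members, and subunits with no probe set of their own were not analysed here.

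The arrays (Affymetrix HG-U133 Plus 2.0) measured mRNA of A549 lung adenocarcinoma cells and of BEAS-2B cells, an immortalised bronchial epithelial line, in 7 groups of 3 biological replicates. A549 cells received control siRNA or APE1 siRNA, the latter directed against APEX1, the gene of the base excision repair endonuclease and transcription coactivator APE1. Both kinds of cells were also given trichostatin A (TSA, a histone deacetylase inhibitor) at 100 ng/ml for 4 hours. BEAS-2B cells received plasmids for wild-type (WT) APE1, for K6R/K7R APE1, in which the lysines at those positions are replaced by arginine, or for NΔ42 APE1, which lacks the N-terminal domain. The study's methods describe K6R/K7R and NΔ42 APE1 in different plasmid backbones, the former with a FLAG tag, and WT APE1 in both. Which WT plasmid the arrays used is not stated there. Where backbone or tag differ from WT, they cannot be told apart from the mutation. Every group was a transient lipid transfection, there was no untransfected or empty-vector group among the arrays used here, and endogenous APE1 remained in the BEAS-2B cells. Harvest came 48 hours after transfection according to the labels, whereas the study's methods give a later time for the siRNA experiments.

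Electrons from NADH enter the chain at complex I and those from succinate at complex II, pass through coenzyme Q, complex III and cytochrome c, and reach oxygen at complex IV. The proton gradient that complexes I, III and IV build drives ATP synthesis by complex V. Most subunits are encoded in the nucleus and imported, a few core subunits are encoded by mitochondrial DNA, and several complex IV subunits have paired isoforms, of which a variant is confined largely to muscle, lung or testis. NRF1, GABPA and YY1 are transcription factors known for binding many promoters of these genes.

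Values are log2 RMA values, taken here as normalized separately in the cell lines, so levels are not compared between the lines. A value of a probe set describes that probe set alone. A gene was called when limma's moderated test gave an adjusted p (Benjamini-Hochberg over 54613 probe sets) under 0.05 and the log2 fold change was at least 0.32 in size. In bulk RNA, fewer cells of a kind and less RNA per cell cannot be told apart. KRT8 lay at 8.28 to 8.86 in A549 and 10.22 to 10.47 in BEAS-2B, KRT18 at 8.96 to 12.01 and 11.49 to 11.63. KRT7 lay at 7.0 to 11.88 and 8.82 to 10.41. The lowest A549 readings of KRT18 and KRT7 came from APE1 siRNA replicate 2 without TSA, an array described below. On the other A549 arrays the lowest were 10.89 and 10.56. KRT19 did not exceed 6.30, EPCAM 5.69 and CDH1 6.94 in either line. Of these epithelial markers KRT7, KRT8 and KRT18 thus bear out the label and KRT19, EPCAM and CDH1 do not. Of 6 fibroblast markers COL1A1 lay at 9.99 to 10.62 and 11.67 to 12.98, and the others did not exceed 7.98. Of 5 measured leukocyte markers PTPRC lay between 4.12 and 4.88, while CD3E lay at 7.24 to 8.0 in A549 and 5.94 to 6.44 in BEAS-2B, CD14 at 6.30 to 7.49 and 6.42 to 7.19, ITGAM at 6.09 to 6.63 and 5.75 to 6.16, and LCP1 at 6.53 to 7.05 and 5.12 to 5.84.

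The siRNA target was checked at the start. APEX1 read 12.20, 12.24 and 12.14 on the control siRNA arrays and 10.05, 8.43 and 10.18 on those of APE1 siRNA. With TSA it read 11.85, 11.77 and 11.77 against 9.53, 9.53 and 9.55. The groups did not overlap in either setting, and limma gave log2 fold changes of -2.64 (SE 0.358, adjusted p = 0.0022) and -2.27 (adjusted p = 0.0048). The -2.64 includes replicate 2 (8.43), the array described below as standing apart. Replicates 1 and 3 read 10.05 and 10.18. The sizes of these falls with and without TSA are therefore not compared. In BEAS-2B cells APEX1 read 10.85, 11.02 and 10.09 with WT, 10.61, 10.67 and 10.68 with K6R/K7R and 10.39, 10.57 and 10.50 with NΔ42. Those ranges overlapped between WT and each mutant, and since the part of the transcript this probe set reads was not examined here, it checks neither construct.

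A single A549 array stood apart. Replicate 2 of APE1 siRNA without TSA correlated with the other A549 arrays at 0.876 to 0.896, whereas the other 20 arrays correlated at 0.994 or more within their groups, that array aside. The subunit genes were low on it. Their median value was 8.89 there against 11.84 and 11.79 on replicates 1 and 3. Relative to the mean of those replicates, 71 of the 76 members lay lower, 47 (61.8%) by more than 1 log2 unit, with a median of -2.22 and a range from -6.59 to 0.48. Over all genes the median was -0.09 and 16.1% lay lower by more than 1. Over the 2423 genes with a mean of at least 10 in A549, a level that 65 members reach, the median was -1.15 and 52.6% lay lower by more than 1 (this stratum was chosen after seeing the values). The difference between the 3′ and 5′ probe sets of ACTB, a sign of RNA integrity, was 6.08 on this array and 0.13 to 1.05 on the other A549 arrays, and for GAPDH 2.06 against 0.03 to 0.71. The part of RNA quality in the subunit values was not tested. The counts of called genes in the siRNA and TSA comparisons are therefore given with this array and without it.

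**Figure D1:**
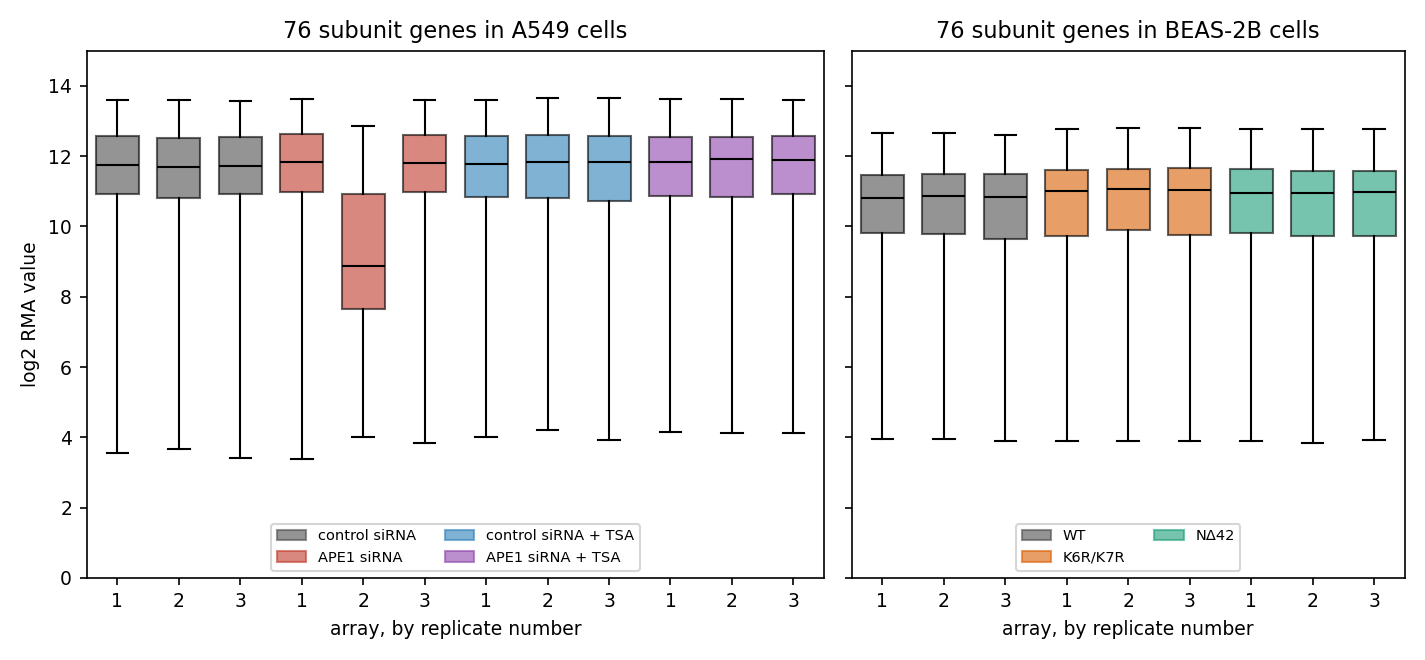
Log2 RMA values of the 76 subunit genes on each array (line, median; box, quartiles; whiskers, lowest and highest gene), by group and replicate number, in A549 (left) and BEAS-2B cells (right). The median lay at 8.89 on APE1 siRNA replicate 2 and between 11.68 and 11.92 on the other A549 arrays.

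The chosen probe sets of 65 members had a mean of at least 10 in A549 and those of 53 in BEAS-2B, while 3 and 5 had a mean under 6. For the isoforms known from other tissues the readings were as follows. COX6A2 (muscle isoform) lay between 6.50 and 6.93 in A549 and between 6.08 and 6.29 in BEAS-2B. COX7A1 (heart and muscle isoform) lay at 5.73 to 6.07 and 4.67 to 5.52, and COX8C (testis isoform) at 3.39 to 4.22 and 3.85 to 3.96. COX4I2, an isoform known from lung and hypoxia, lay at 6.43 to 6.91 and 5.75 to 6.06.

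RefSeq (GRCh38.p14) promoters, from 250 bases before to 50 after a transcript start, were at hand for 65 of the 76 members. They were searched on both strands for the core motifs of NRF1 (GCGCATGCG), of ETS factors such as GABPA (CCGGAAGT) and of YY1 (AAGATGGCG), counting a gene when any of its listed starts matched. The NRF1 core stood in 11 members (16.9%, against 2.34% of 27305 genes with a promoter), the ETS core in 11 (16.9% against 4.95%) and the YY1 core in 8 (12.3% against 2.14%). At least 1 of these 3 cores stood in 26 of the 65 (40.0%, against 8.77% of all genes). Unlike the members, that background was not limited to protein-coding genes or to genes read on the arrays. The 6 sequences printed here are the 250 bases upstream of the start, with motif matches in capitals. NDUFV3 is shown because it was the member called lower after APE1 siRNA, NDUFA2 and NDUFB11 because they changed most in the mutants, COX6B2 because it was called in 4 comparisons, NDUFA13 as a member called higher with K6R/K7R whose window holds an ETS core, and SDHD because its window holds both an ETS core and overlapping NRF1 cores on the 2 strands. They lie on the plus strand at chr21:42893059-42893308 (NDUFV3), chr19:19515975-19516224 (NDUFA13) and chr11:112086623-112086872 (SDHD), and on the minus strand at chr5:140647631-140647880 (NDUFA2), chrX:47144703-47144952 (NDUFB11) and chr19:55354720-55354969 (COX6B2).
NDUFV3: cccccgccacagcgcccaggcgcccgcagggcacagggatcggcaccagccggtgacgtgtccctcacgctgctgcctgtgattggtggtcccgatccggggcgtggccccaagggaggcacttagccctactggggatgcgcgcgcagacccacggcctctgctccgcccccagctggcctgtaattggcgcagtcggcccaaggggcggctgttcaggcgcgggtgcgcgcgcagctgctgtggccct
NDUFA2: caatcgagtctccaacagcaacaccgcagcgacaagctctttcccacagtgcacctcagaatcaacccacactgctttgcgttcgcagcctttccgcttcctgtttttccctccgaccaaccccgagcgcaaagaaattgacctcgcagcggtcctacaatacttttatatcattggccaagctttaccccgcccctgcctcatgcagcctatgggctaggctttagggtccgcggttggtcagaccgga
NDUFB11: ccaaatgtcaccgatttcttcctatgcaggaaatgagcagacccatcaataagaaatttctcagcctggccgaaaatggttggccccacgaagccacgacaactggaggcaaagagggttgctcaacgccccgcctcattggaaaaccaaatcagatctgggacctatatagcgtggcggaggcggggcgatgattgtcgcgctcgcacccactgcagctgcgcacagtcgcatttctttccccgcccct
COX6B2: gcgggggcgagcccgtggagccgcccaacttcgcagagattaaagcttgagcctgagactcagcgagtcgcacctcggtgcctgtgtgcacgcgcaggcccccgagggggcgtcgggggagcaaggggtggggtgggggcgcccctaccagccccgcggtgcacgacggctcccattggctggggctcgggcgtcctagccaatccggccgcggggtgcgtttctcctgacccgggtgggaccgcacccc
NDUFA13: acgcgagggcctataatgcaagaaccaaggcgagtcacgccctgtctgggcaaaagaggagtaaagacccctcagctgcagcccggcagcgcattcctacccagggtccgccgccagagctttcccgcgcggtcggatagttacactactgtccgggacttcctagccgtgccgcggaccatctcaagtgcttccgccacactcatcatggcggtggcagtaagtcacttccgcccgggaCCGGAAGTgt
SDHD: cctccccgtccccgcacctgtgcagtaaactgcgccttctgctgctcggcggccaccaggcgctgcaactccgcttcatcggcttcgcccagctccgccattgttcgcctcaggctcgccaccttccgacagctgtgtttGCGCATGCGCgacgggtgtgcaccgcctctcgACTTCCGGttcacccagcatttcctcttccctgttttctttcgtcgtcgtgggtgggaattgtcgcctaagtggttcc
Counted from the transcript start, the ETS core of NDUFA13 begins at -10, and in SDHD the NRF1 cores begin at -110 and -109 and the ETS core at -78. Of the 13 members called higher with K6R/K7R that had a promoter, 4 held at least 1 core (30.8%), against 22 of the 52 other members (42.3%). The other 4 printed windows hold none of the 3 cores, which says only that these letters are not in them.

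The comparison of APE1 siRNA with control siRNA asks which genes change with the siRNA directed against APEX1. The study names a single siRNA sequence for its arrays. Whether that sequence acts on transcripts other than APEX1 was not tested here. Among the members, NDUFV3 was called lower and none was called higher, where 3.09% of all genes were called lower and 1.85% higher. NDUFV3 encodes an accessory subunit of the NADH-oxidising module of complex I. It read 10.19, 10.20 and 10.28 in control siRNA cells and fell to 8.97, 8.74 and 8.99, giving a log2 difference of -1.32 (SE 0.077, adjusted p = 1.2e-05). Every siRNA array lay below every control array, and without replicate 2 the change was -1.24 (adjusted p = 2.4e-07). Its second probe set gave -0.56 and was also called.

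The median over the members turned on the array that stands apart, though not every member did. ATP5F1D, for example, read 10.93, 10.82 and 10.92 on control arrays and 11.16, 11.12 and 11.19 on siRNA arrays. With the array that stands apart, the members' median log2 fold change was -0.74 and 15 of 76 were positive, while the median of all genes was -0.03. Without it, the members' median was 0.08 and 58 of 76 were positive, while the median of all genes was 0.00. By complex the medians moved from -0.90 to 0.09 for complex I, from -0.13 to 0.10 for complex II, from -0.29 to 0.08 for complex III, from -0.53 to 0.06 for complex IV and from -0.76 to 0.06 for complex V. COX6A1, the ubiquitous form of a small complex IV subunit, shows the pattern: it read 13.06, 13.00 and 13.04 on control arrays and 13.11, 6.53 and 13.12 on siRNA arrays. At 2 of its 3 siRNA arrays it stood slightly above the controls, and its log2 fold change of -2.12 (adjusted p = 0.49) became 0.08 without that array.

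Without that array 2 members were called lower, NDUFV3 and NDUFA11, and again none higher; the shares over all genes were then 4.35% lower and 4.86% higher. NDUFA11, a membrane-embedded complex I subunit singled out after its values were seen, read 11.49 on all 3 control arrays and 11.03, 8.84 and 11.08 after siRNA. Its change without replicate 2 was -0.43 (adjusted p = 6.9e-04), against -1.17 (adjusted p = 0.28) with it.

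**Figure D2:**
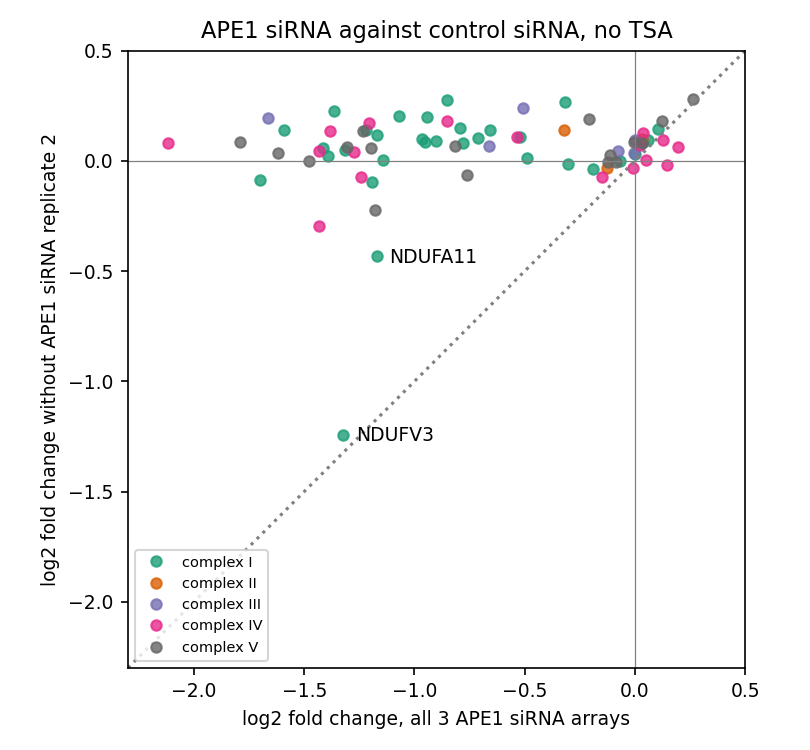
Log2 fold change of each subunit gene after APE1 siRNA without TSA, with all 3 siRNA arrays (horizontal axis) and without replicate 2 (vertical axis); points are genes coloured by complex and the dotted line marks equality. NDUFV3 lies near the dotted line at -1.32 and -1.24, while most members move to values near 0 on the vertical axis.

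In TSA-treated cells the same siRNA comparison used only arrays that resembled each other. NDUFV3 was again the member called lower and none was called higher, where 3.37% of all genes were called lower and 1.91% higher. It read 10.41, 10.46 and 10.51 with control siRNA against 9.38, 9.36 and 9.49 with APE1 siRNA, giving a log2 difference of -1.05 (SE 0.077, adjusted p = 4.2e-05), with no overlap. Its second probe set gave -0.50 and was called as well. The other members gave values from -0.47 to 0.26, with a median over the 76 of 0.05 against 0.02 for all genes.

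The array that stands apart also enters the spread that limma estimates over all 12 A549 arrays. With it left out, NDUFA11 joined NDUFV3 among the members called lower after siRNA in TSA-treated cells, where the shares over all genes became 6.42% lower and 4.19% higher. NDUFA11 read 11.69, 11.81 and 11.81 with control siRNA against 11.24, 11.31 and 11.34 with APE1 siRNA, a change of -0.47 whose adjusted p went from 0.86 to 9.5e-05.

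The interaction asks whether the siRNA effect differed with TSA. No member was called with all arrays (1 of 76 at an unadjusted p under 0.05; 0.121% of all genes were called) or without replicate 2 (2 of 76 at an unadjusted p under 0.05; 1.81% of all genes). For NDUFV3 the interaction was 0.28 (SE 0.109, adjusted p = 0.70), and without replicate 2 it was 0.20 (adjusted p = 0.39).

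**Figure D3:**
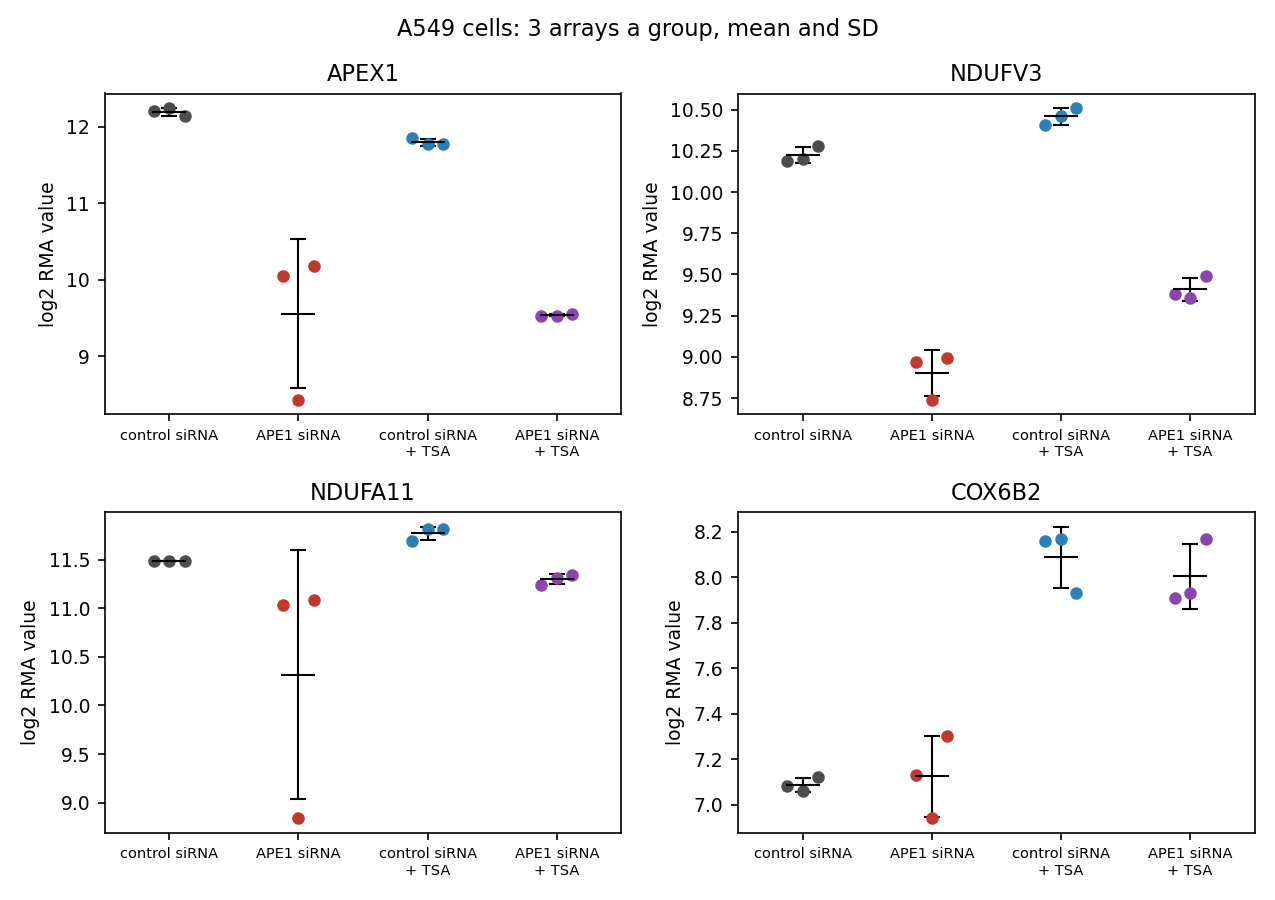
Log2 RMA values of APEX1, NDUFV3, NDUFA11 and COX6B2 on the 12 A549 arrays (points), with the mean (line) and SD (bar) of each group of 3. APEX1 and NDUFV3 lie lower on every APE1 siRNA array than on the matching controls, and COX6B2 lies higher on every TSA array.

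TSA against no TSA called more subunit genes without the array that stands apart than with it, as given below. With all arrays in the fit few were called. After control siRNA 2 members were called higher and 3 lower (2.63% and 3.95% of the members), where 11.9% of all genes were called higher and 8.94% lower. COX6B2, the testis isoform of a complex IV subunit on the intermembrane space side, rose from 7.08, 7.06 and 7.12 to 8.16, 8.17 and 7.93, giving a log2 difference of 1.00 (SE 0.109, adjusted p = 0.000103). All TSA arrays lay above all control arrays. Its ubiquitous counterpart COX6B1 read 12.36 to 12.41 without TSA and 12.32 to 12.49 with it, and the change of -0.01 was not called.

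COX8C was the other member called higher, at 0.50 (adjusted p = 0.032), from 3.55, 3.68 and 3.42 to 4.00, 4.22 and 3.93. The call was lost without control siRNA replicate 1 or 3 (adjusted p = 0.086 and 0.12) and without TSA control replicate 1 or 2 (0.065 and 0.13). Called lower were NDUFA10 (-0.36, adjusted p = 0.012), a subunit of the membrane arm of complex I, NDUFS3 (-0.33, adjusted p = 0.0030), a core subunit of its hydrophilic arm, and SDHC (-0.33, adjusted p = 0.022), a membrane anchor of succinate dehydrogenase. NDUFS3 read 10.89, 10.79 and 10.82 without TSA and 10.47, 10.55 and 10.49 with it, with no overlap. SDHC has 6 other probe sets, of which 2 had the same sign and 1 was called the same way, and its call was lost without any of 5 arrays of control siRNA replicates 1 and 3 and TSA control replicates 1, 2 and 3 (adjusted p from 0.055 to 0.083). NDUFA10 was no longer called without control siRNA replicate 3 or TSA control replicate 3 (0.051 and 0.054), and NDUFS3 fell below the fold limit without control siRNA replicate 1 (-0.31) or TSA control replicate 1 (-0.31).

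After APE1 siRNA the TSA comparison called 3 members higher and 1 lower, where 15.3% of all genes were called higher and 9.77% lower. COX6B2 rose from 7.13, 6.94 and 7.30 to 7.91, 7.93 and 8.17 (0.88, adjusted p = 0.000198), again with no overlap, and by 0.79 without the outlying array. NDUFV3 rose by 0.51 (adjusted p = 7.7e-04; 0.43 without that array), and NDUFS3 fell by 0.40 (adjusted p = 8.7e-04; -0.44 without that array). NDUFA8, a complex I subunit facing the intermembrane space, was called at 0.62 (adjusted p = 0.039) with siRNA values of 9.97, 9.09 and 9.92, the low reading being the array that stands apart, and TSA values of 10.23, 10.25 and 10.36. Without that array its change was 0.33 (adjusted p = 0.0019). Its call was lost when any array of control siRNA, TSA with control siRNA or TSA with APE1 siRNA was left out in turn (adjusted p from 0.056 to 0.11).

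The members' median after APE1 siRNA was 0.75 with 66 of 76 positive, and 0.00 with the outlying array left out. Then the TSA comparisons called more members, and the shares of all genes rose as well. After control siRNA 8 were called higher and 4 lower (all genes, 16.4% and 14.4%), and after APE1 siRNA 7 higher and 6 lower (17.2% and 16%). NDUFA2, NDUFA8, NDUFB3, SDHA, COX6B2 and COX8C were called higher in each, and NDUFA9, NDUFA10, NDUFS3 and SDHC lower in each; these comparisons share no array. Beside them NDUFA5 and NDUFB6 were called higher after control siRNA, NDUFV3 higher and NDUFB4 and UQCRC1 lower after APE1 siRNA. SDHA, the flavoprotein subunit of succinate dehydrogenase, read 10.21 to 10.27 after control siRNA without TSA and 10.55 to 10.66 with it (0.36, adjusted p = 3.1e-04 without the outlying array and 0.49 with it). SDHD, the other membrane anchor, gave 0.23 (adjusted p = 0.047 with all arrays), under the fold limit. SDHC gave -0.33 and -0.42 without the outlying array. Within complex II, the chosen probe sets of SDHA and SDHC were thus called on opposite sides. The 6 other SDHC probe sets ran from -0.40 to 0.37 after control siRNA, and 2 had the sign of the chosen one.

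In BEAS-2B cells, expression of K6R/K7R APE1 against WT asks which genes differ when those lysines cannot be acetylated. Here 16 members were called higher and 1 lower (21.1% and 1.32% of the members), where 14.1% of all genes were called higher and 11.9% lower. Complex I held 11 of the 16, out of 33, complex IV 3 of 17, and complexes III and V 1 each. The members' median log2 fold change was 0.15 and 61 of 76 were positive, against -0.01 and 47.5% over all genes. The changes were small: the largest was 0.58, in NDUFA2.

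NDUFA2, an accessory subunit of the NADH-oxidising module, read 10.85, 10.88 and 10.88 with WT, 11.39, 11.51 and 11.45 with K6R/K7R and 11.42, 11.34 and 11.34 with NΔ42. The changes were 0.58 (SE 0.051, adjusted p = 3.6e-05) and 0.50 (adjusted p = 0.000111). Mutant arrays all lay above WT arrays at this probe set, while 2 other probe sets of NDUFA2 gave -0.23 and -0.25 with K6R/K7R and -0.08 and -0.02 with NΔ42, none called. With the mean of its probe sets NDUFA2 gave 0.03 (adjusted p = 0.61) and 0.13 (adjusted p = 0.077). NDUFB11, a subunit of the membrane arm, read 10.16, 10.18 and 10.20 with WT, 10.65, 10.79 and 10.74 with K6R/K7R and 10.67, 10.65 and 10.65 with NΔ42 (0.55 and 0.48, adjusted p = 4.9e-05 and 0.000131), and it has no other probe set. NDUFB10, also of the membrane arm, gave 0.45 and 0.41 (adjusted p = 2.9e-04 and 6.9e-04), and its second probe set gave 0.37, called, and 0.26, not called.

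Of the other complex I members called with both mutants, NDUFA1 (0.39 and 0.40), a small membrane-arm subunit, read 10.54 to 10.72 with WT and 10.97 to 11.07 over the mutants. NDUFA3 (0.39 and 0.33) read 9.41, 9.54 and 9.39 with WT, and its NΔ42 call was lost without WT replicate 1 or 3 or NΔ42 replicate 1 (0.30 to 0.31, under the fold limit). Called with K6R/K7R were also NDUFA7 (0.33), NDUFV2 (0.34), an iron-sulfur subunit, NDUFS4 (0.35), NDUFB5 (0.35), NDUFB7 (0.36) and NDUFA13 (0.36), known also as the cell death regulator GRIM-19; with NΔ42 these gave 0.29, 0.20, 0.21, 0.30, 0.27 and 0.32, all under the limit before rounding. NDUFA5, of the hydrophilic arm, was called with NΔ42 (0.41, adjusted p = 0.0061) and gave 0.30 (adjusted p = 0.019) with K6R/K7R. The second probe set of NDUFA7 was called in the opposite direction with both mutants (-0.41 and -0.34). Several of the smaller K6R/K7R calls fell under the fold limit when an array was left out: NDUFA13 without WT replicate 1 (0.32), NDUFA7 (0.29), NDUFB5 (0.28) and NDUFV2 (0.27) without WT replicate 3, and NDUFA7 (0.30) and NDUFB7 (0.32) without K6R/K7R replicate 2.

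UQCRB, which binds ubiquinone in complex III, read 11.77, 11.76 and 11.76 with WT, 12.11, 12.18 and 12.15 with K6R/K7R and 12.15, 12.10 and 12.13 with NΔ42. The changes were 0.38 (adjusted p = 2.2e-04) and 0.36 (adjusted p = 4.1e-04); of its 3 other probe sets 1 was called the same way in each comparison. In complex IV, COX6B1 rose from 9.99, 9.96 and 9.98 to 10.40, 10.39 and 10.33 with K6R/K7R and to 10.35, 10.33 and 10.35 with NΔ42 (0.40 and 0.37). Its isoform COX6B2 rose from 7.17, 7.32 and 7.31 to 7.61, 7.67 and 7.85 and to 7.61, 7.70 and 7.72 (0.44 and 0.41, adjusted p = 0.0014 and 0.0029). Mutant arrays lay above WT arrays for both isoforms. COX7A1 gave 0.53 (adjusted p = 0.013) with K6R/K7R and 0.32 (adjusted p = 0.13) with NΔ42, at readings of 4.67 to 5.52. Its counterpart COX7A2 gave 0.28 and 0.26, under the fold limit. COX4I1, COX4I2, COX6A1, COX6A2, COX8A and COX8C were not called, with values from -0.06 to 0.23. COXFA4 and COXFA4L2, current symbols of NDUFA4 and NDUFA4L2, which stood outside the rule, gave 0.02 to 0.19 and were not called.

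In complex V, 3 genes encode the same mature c subunit of the proton-carrying ring with different import sequences. ATP5MC2 rose from 11.20, 11.27 and 11.32 to 11.68, 11.71 and 11.72 with K6R/K7R and to 11.71, 11.62 and 11.62 with NΔ42 (0.44 and 0.39, adjusted p = 0.000199 and 5.6e-04). ATP5MC1 fell from 9.81, 9.96 and 9.97 to 9.56, 9.69 and 9.47 with K6R/K7R (-0.33, adjusted p = 0.0051), the only member called lower, and gave -0.28 (adjusted p = 0.019) with NΔ42, under the fold limit. Its K6R/K7R call was lost without WT replicate 2 or 3 or K6R/K7R replicate 3 (-0.28 to -0.31). ATP5MC3 gave -0.02 and -0.06. The second probe set of ATP5MC2 gave 0.12 and 0.20 and was not called.

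**Figure D4:**
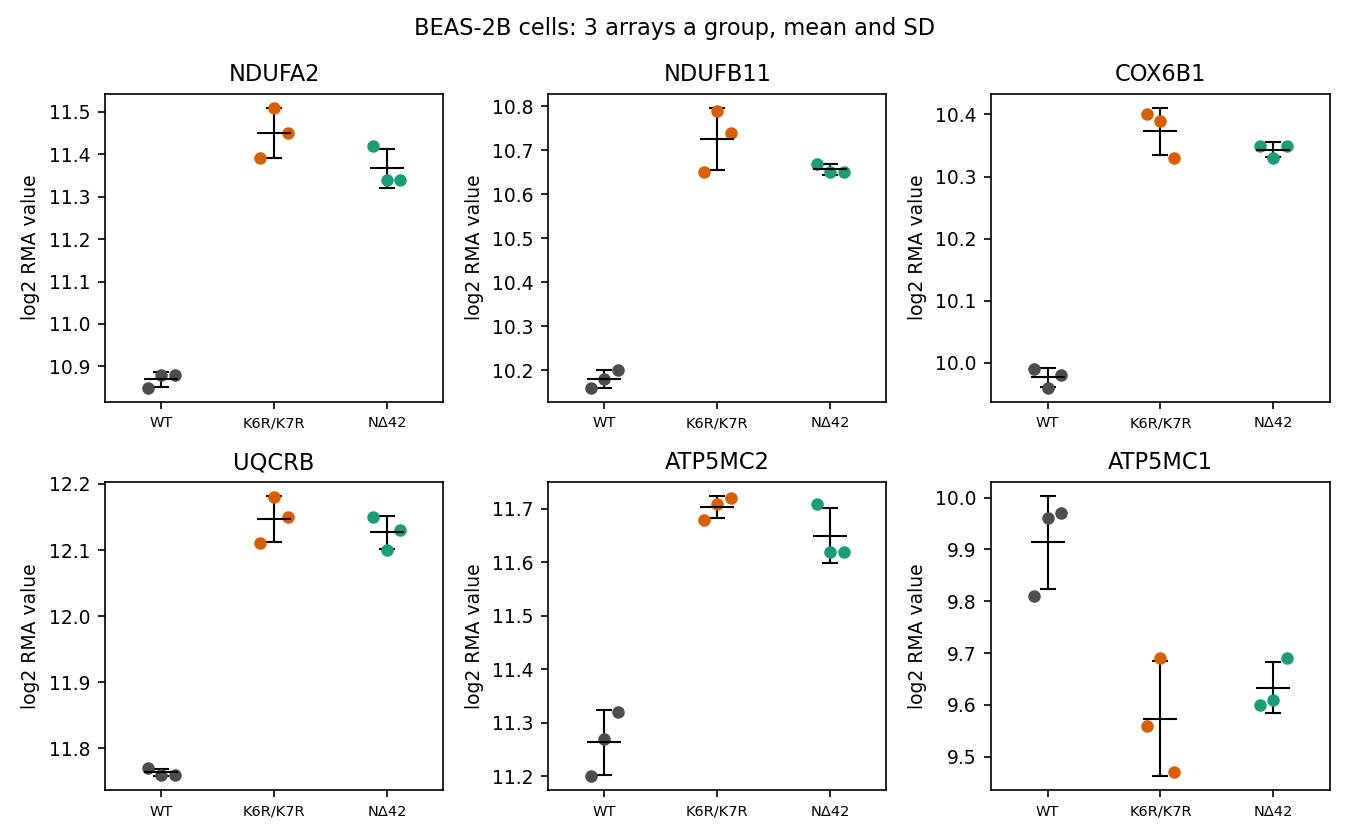
Log2 RMA values of 6 subunit genes on the 9 BEAS-2B arrays (points), with the mean (line) and SD (bar) of each group of 3. NDUFA2, NDUFB11, COX6B1, UQCRB and ATP5MC2 lie higher on every mutant array than on every WT array, and ATP5MC1 lies lower.

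The comparison of NΔ42 with WT asks which genes differ when the expressed APE1 lacks its N-terminal domain. It uses the same WT arrays as the K6R/K7R comparison. It called 10 members higher and none lower (13.2% of the members were higher), where 10.3% of all genes were called higher and 7.50% lower. Complex I held 6 of the 10, complex IV 2, and complexes III and V 1 each. The median of the members was 0.12 with 54 of 76 positive, against 0.00 and 49.0% over all genes. No complex II gene was called with either mutant: SDHA gave 0.21 and 0.12, SDHC 0.32 (just under the limit before rounding) and 0.26, and SDHD 0.16 and 0.17. Between the mutants themselves limma called 0 members (4 of 76 at an unadjusted p under 0.05), and 0% of all genes were called (2484 of 19775 at an unadjusted p under 0.05). The differences of NΔ42 from K6R/K7R ran from -0.21 to 0.21, with a median of -0.03.

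**Figure D5:**
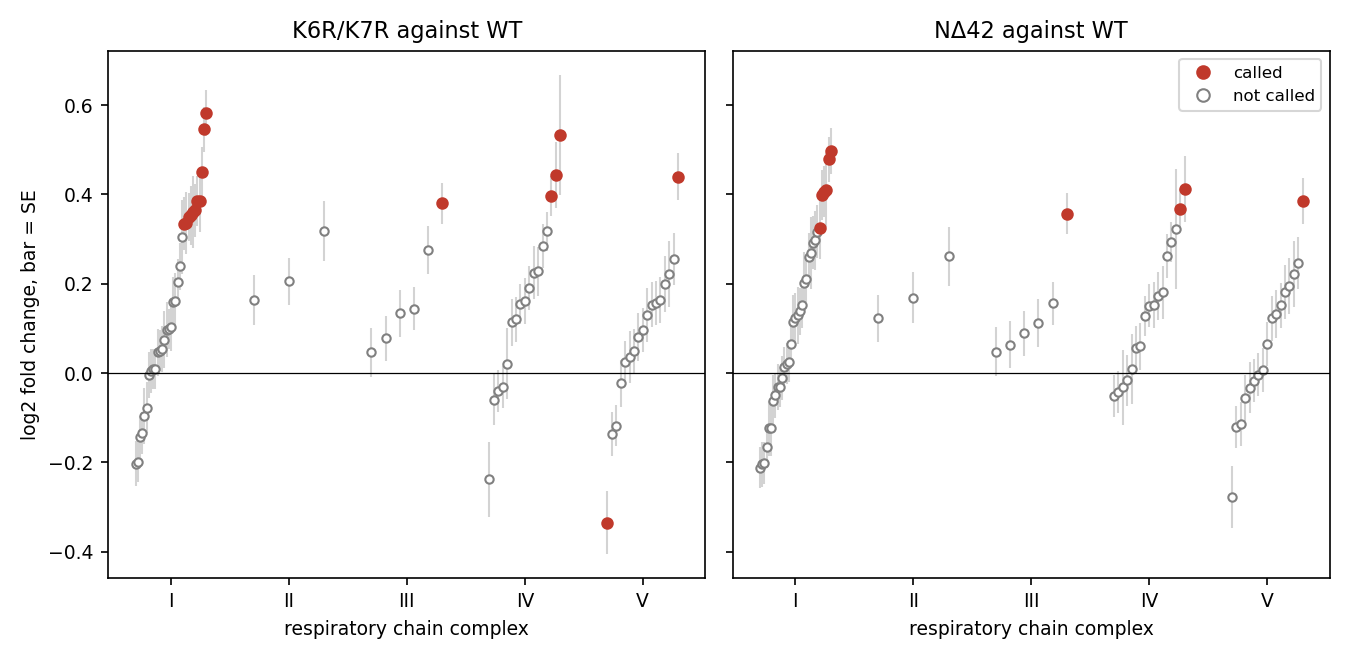
Log2 fold change of each of the 76 subunit genes with K6R/K7R (left) and NΔ42 (right) against WT, ordered by value within its complex; bars show the SE, red points were called (adjusted p under 0.05 and log2 fold change of at least 0.32 in size). Called genes lie on the higher side in all complexes but II, except ATP5MC1 at -0.33 with K6R/K7R.

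The median of the family depended on the scaling, and genes of its level had a median of like sign. Over the 1652 genes with a mean of at least 10 in BEAS-2B the median was 0.12 with K6R/K7R and 68.0% were positive, beside 0.16 over the 53 members of that level (45 positive). With NΔ42 these medians were 0.09 and 0.13. After the arrays were quantile-normalized once more the medians over the 76 members were 0.04 and 0.06, with 46 and 48 positive, and the calls with K6R/K7R became 6 higher and 2 lower. With the mean of all of a gene's probe sets in place of the brightest, the medians were 0.05 and 0.06. The 6 genes that kept their higher call with K6R/K7R after the added normalization were NDUFA2, NDUFB11, NDUFB10, COX6B2, COX7A1 and ATP5MC2.

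Markers of several cell types moved with the mutants too, and their part in the subunit values was not tested. Of 6 fibroblast markers, COL1A1 (1.06 and 1.16), PDGFRB (0.93 and 0.83) and COL1A2 (0.43 and 0.48) were called higher with both, and DCN lower with K6R/K7R (-0.35); the summed level of the list (log2 of the sum), which consists almost wholly of COL1A1 (11.67 to 12.01 with WT, 12.81 to 12.93 with K6R/K7R and 12.92 to 12.98 with NΔ42), ran from 11.82 to 12.12 with WT, 12.90 to 13.02 with K6R/K7R and 13.00 to 13.06 with NΔ42. Of 6 epithelial markers, KRT7 was called lower (-1.32 and -1.43) and CDH1 higher (1.16 and 1.07), and the summed level ran from 12.44 to 12.55, 12.25 to 12.35 and 12.22 to 12.31. Of 5 leukocyte markers LCP1 was called lower with both (-0.53 and -0.38), CD14 higher with both (0.37 and 0.51) and CD3E lower with K6R/K7R (-0.35), and the summed level ran from 8.28 to 8.37 with WT, 8.21 to 8.32 with K6R/K7R and 8.39 to 8.45 with NΔ42. Of 6 endothelial markers PECAM1 was called lower with both (-0.69 and -0.35) and CLDN5 higher with K6R/K7R (0.58), and the sum ran from 8.59 to 8.71, 8.48 to 8.75 and 8.66 to 8.78. Of 5 striated muscle markers COX7A1, itself a member, was called higher and MYH7 lower (-0.36) with K6R/K7R. The fibroblast markers LUM and COL3A1 stayed between 4.52 and 4.89. RMA values hold no true 0, so none can be called absent.

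Among the genes that build the chain, calls stood on both sides. Of 59 assembly factors and accessory genes, 1 was called higher and 2 lower after APE1 siRNA without TSA, and 1 higher and 4 lower with TSA (3 and 2, and 3 and 5, without the outlying array). Over all genes 1.85% were called higher and 3.09% lower without TSA, and 1.91% and 3.37% with TSA. Without the outlying array these shares were 4.86% and 4.35%, and 4.19% and 6.42%. The 3 genes called without TSA with all arrays are named next, and they serve complex III. With TSA, further genes of the list were called lower that are not named here. UQCC6 rose from 7.67, 7.57 and 7.62 to 9.11, 9.06 and 9.13 (1.49, adjusted p = 2.1e-06), and with TSA by 1.60. LYRM7, which chaperones the Rieske iron-sulfur protein, fell from 9.73, 9.75 and 9.61 to 9.0, 8.88 and 8.94 (-0.76, adjusted p = 2.1e-04), and with TSA by 0.79. BCS1L, which inserts that protein, gave -0.33 and -0.42, both called, but without the outlying array it was called only with TSA. On these probe sets the array that stands apart lay with its replicates.

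With TSA after control siRNA 7 of the 59 were called higher and 8 lower, and after APE1 siRNA 15 higher and 7 lower (14 and 14, and 15 and 16, without the outlying array). Over all genes 11.9% were called higher and 8.94% lower in control siRNA cells, and 15.3% and 9.77% in APE1 siRNA cells. Without the outlying array these shares were 16.4% and 14.4%, and 17.2% and 16%. SDHAF4, an assembly factor of the flavoprotein subunit, rose from 7.33, 7.10 and 7.13 to 8.35, 8.40 and 8.42 (1.20), LYRM7 rose by 1.15, SURF1, a complex IV assembly factor, by 0.51, and COX10, which makes the haem precursor of complex IV, gave -0.57. With K6R/K7R 8 of the 59 were called higher and 15 lower, and with NΔ42 6 higher and 16 lower. Over all genes 14.1% and 10.3% were called higher, near the share of the list, and 11.9% and 7.50% lower, under it. The complex I assembly factor NDUFAF4 fell from 8.33, 8.18 and 8.51 to 7.14, 7.21 and 7.08 (-1.20) and to 7.09, 7.21 and 7.32 (-1.13). NDUFAF8 gave -0.71 and -0.75, HIGD1A, a protein associated with complexes III and IV, -0.66 and -0.68, and CYCS, the gene of cytochrome c, -0.63 and -0.66. COA5, a complex IV assembly factor, rose by 0.53 and 0.59. Among complex I assembly factors NDUFAF2, NDUFAF4, NDUFAF5, NDUFAF6 and NDUFAF8 were called lower with both mutants, and ECSIT was called higher with K6R/K7R (0.34), beside the 11 subunits of complex I called higher with K6R/K7R and the 6 with NΔ42.

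Of 22 regulators of mitochondrial biogenesis and DNA maintenance, none was called after APE1 siRNA without TSA (5 at an unadjusted p under 0.05), and TFAM, which packages mitochondrial DNA, was called higher with TSA (0.40). Without the outlying array ESRRA, a nuclear receptor of energy metabolism, was called higher without TSA (0.41), and TFAM and POLG with TSA. TSA after control siRNA called 3 higher and 7 lower and TSA after APE1 siRNA 5 and 7 (3 and 8, and 5 and 9, without that array). The smallest adjusted p values belonged to POLRMT, the mitochondrial RNA polymerase (-0.71), MTERF4 (-0.55), PPARGC1B (-0.48) and TFAM (0.39); GABPA and GABPB1, the subunits of the factor that binds the ETS core searched above, gave -0.89 and -0.96. Over all genes 14.1% were called higher and 11.9% lower with K6R/K7R, and 10.3% and 7.50% with NΔ42. With TSA in control siRNA cells, 11.9% of all genes were called higher and 8.94% lower (16.4% and 14.4% without the outlying array). In APE1 siRNA cells TSA called 15.3% higher and 9.77% lower (17.2% and 16% without that array). The siRNA called 1.85% higher and 3.09% lower without TSA, and 1.91% and 3.37% with it. Leaving out that array gave 4.86% and 4.35%, and 4.19% and 6.42%. The shares over all genes in this paragraph apply to the lists that follow as well. Of the 22 regulators, 3 were called higher and 6 lower with K6R/K7R, and 2 higher and 6 lower with NΔ42. GABPB1 fell by 0.82 with each mutant, while GABPA rose by 0.44 and 0.52. POLG, the mitochondrial DNA polymerase, rose by 0.55 and 0.60, TFB2M gave -0.42 and -0.50 and TWNK, the mitochondrial helicase, -0.55 and -0.49.

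Of 17 measured genes of the tricarboxylic acid cycle and pyruvate dehydrogenase, SUCLG2 was called higher after APE1 siRNA (0.54, and 0.60 with TSA) and PC, pyruvate carboxylase, with TSA (0.35, adjusted p = 0.038). Without the outlying array 2 were called higher without TSA, PDHX (1.10) and SUCLG2 (0.55), and 4 higher and 1 lower with TSA. TSA itself called 1 higher and 2 lower in control siRNA cells and 3 and 2 in APE1 siRNA cells (3 and 4, and 3 and 5, without that array). With K6R/K7R 4 were called higher and 1 lower, and with NΔ42 3 and 1. IDH2, the mitochondrial NADP-dependent isocitrate dehydrogenase, rose from 8.63, 8.63 and 8.58 to 9.69, 9.77 and 9.60 and to 9.71, 9.59 and 9.58 (1.08 and 1.02), with no overlap. PDHB rose by 0.59 and 0.46, and IDH3A fell by 0.47 and 0.62. Of 13 coenzyme Q synthesis genes, COQ3 was called lower after APE1 siRNA without TSA (-0.34) and COQ4 higher with TSA (0.37), while without the outlying array COQ5 was called higher without TSA and 2 genes were called higher and 1 lower with TSA. TSA called none higher and 1 lower in control siRNA cells and 2 and 1 in APE1 siRNA cells (1 and 3, and 2 and 2, without that array). With the mutants, 5 were called higher and 1 lower with K6R/K7R, and 4 and 2 with NΔ42, led by COQ8A (0.94 and 0.88), COQ2 (0.50 and 0.35), COQ10A (0.62 and 0.53) and PDSS1 (-0.75 and -0.76).

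Of 9 measured carriers, UCP2, an uncoupling protein family member, rose with TSA (0.89 after control siRNA, 1.08 after APE1 siRNA) and SLC25A27 with the mutants (0.93 and 0.98). None was called after APE1 siRNA, with or without the outlying array, and TSA called 1 higher after control siRNA and 3 after APE1 siRNA (3 in each without that array). Of the 26 symbols of mitochondrially encoded genes, 7 had a probe set. ND6 was called lower after APE1 siRNA without TSA (-0.35), rose with TSA (0.66 and 0.95), and COX3 rose with TSA (0.37 and 0.53) and with the mutants (0.56 and 0.57), and COX1 was called lower with NΔ42 (-0.41). The counts of this list in the siRNA and TSA comparisons were the same without the outlying array.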

How the data were processed

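Total RNA was hybridised to Affymetrix HG-U133 Plus 2.0 arrays, and the authors deposited log2 expression values made with RMA of the affy package. Package versions were not stated in what was used here. That the values were normalized within each cell line was inferred from their distributions. Deposited tables of the authors' own comparisons (log2 fold changes and p-values) were not used. Of 54675 probe sets, 62 control probe sets were left out. Groups came from the sample labels. For each cell line, limma 3.58.1 (lmFit and eBayes) in R 4.3.3 fitted a mean per group over all 12 A549 or 9 BEAS-2B arrays, with Benjamini-Hochberg adjustment over 54613 probe sets. The fits were tested on simulated data. The number of arrays limits the precision, and where the labels do not say how replicates were separated, p-values measure the spread between these samples.

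Named were the called members with the smallest adjusted p or the largest change in each comparison and complex, members called in related comparisons, the complex II genes and isoform pairs, and up to 4 genes of each pathway list by adjusted p. Genes named beyond these, and the group of genes with a mean of at least 10, were chosen after their values were seen. The members, lists and tests were chosen with earlier results of these data known. Alternatives covered normalization, probe set choice, array weights, thresholds, a replicate block and leaving out each array.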

Additional observations from a re-analysis of the deposited data

Results flagged for a closer look

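Probe sets with a symbol like that of a subunit gene, but of noncoding RNAs or a pseudogene, stood outside the comparisons above, and some passed limma's test (adjusted p under 0.05 and a log2 fold change of at least 0.32 in size). They are listed because they carry a signal in data those comparisons did not use. NDUFV1-DT gave -0.592 with K6R/K7R and -0.325 with NΔ42 on the log2 scale. The pseudogene ATP5MC2P1 gave 0.449 and 0.514. A probe set of NDUFV2-AS1 gave 0.387 with K6R/K7R, and another gave 0.379 with TSA after control siRNA and 0.45 with TSA after APE1 siRNA. NDUFB2-AS1 gave -0.374 with TSA after APE1 siRNA. Whether the probes of ATP5MC2P1 also read ATP5MC2 was not tested.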

How the results depend on the processing

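NDUFV3 kept its direction and its call after APE1 siRNA, with and without TSA, under all 23 alternatives. The number of members called after APE1 siRNA without TSA was 1, and 2 with array weights, with probe sets averaged per gene, with quantile normalization after leaving out the array that stands apart and with no minimum fold. With TSA it was 1, and 2 with only the groups compared, with array weights, with the mean of probe sets and with that quantile normalization. For TSA after control siRNA the 5 calls became 12 with only the groups compared, 10 with array weights or that quantile normalization, 8 with no minimum fold, 3 with further quantile normalization, median centring, a trended robust fit or the mean of probe sets, and 2 at an adjusted p under 0.01. For TSA after APE1 siRNA the 4 calls became 7 with further quantile normalization, 12 with array weights, 11 with quantile normalization after leaving out that array and 8 with no minimum fold. With K6R/K7R the 17 calls became 8 with further quantile normalization and 42 with no minimum fold, and with NΔ42 the 10 became 26 with no minimum fold. Leaving out each array in turn gave 1 to 2 calls in each siRNA comparison, 2 to 12 and 3 to 13 in the TSA comparisons, 14 to 18 with K6R/K7R and 9 to 12 with NΔ42; the highest TSA counts, 12 and 13, came without APE1 siRNA replicate 2.

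NDUFA7 with K6R/K7R reversed to -0.038 (limma adjusted p = 0.528) with the mean of its probe sets. Over the named genes, 294 of 322 results with K6R/K7R, 178 of 190 with NΔ42, 88 of 114 for TSA after control siRNA and 78 of 92 for TSA after APE1 siRNA kept direction and call. The cause was not tested.

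Same-numbered arrays did not deviate together in every pair (correlations from -0.079 to 0.264 in A549 and -0.033 to 0.201 in BEAS-2B). Differently numbered arrays were not compared, so this does not settle whether the numbers pair the arrays. With a replicate block the counts called were 1, 1, 5, 4, 17 and 10 in the comparisons in the order above, and 0 for the interaction and between the mutants.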
